A study of Homo sapiens with 8 samples.

Results

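In the deposited list of H3K4me1 peaks of control MDA-MB-231 cells, 1642 peaks were at least 2000 and under 10000 bases long, lay on chromosomes 1 to 22 or X, and shared no base with any peak of the ARID1A knockout list. They are called wide control-only peaks here. They were chosen by measured values, their width and the absence of a called knockout peak, and made up 1642 of the 83000 peaks in the control list. Of the 26657 control peaks of that width, 6.16% were control-only, and the other 25015 overlapped a knockout peak and are called shared wide peaks. The reverse rule gave 1493 wide knockout-only peaks of 27397, 5.45%. Control-only means that no knockout peak was called over the peak, which is not the same as a measured loss of the mark.

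The study profiled H3K4me1 by ChIP-seq (sequencing of DNA bound to immunoprecipitated histones) in MDA-MB-231, an established triple-negative breast cancer line, with genotypes labelled control and ARID1A knockout. The 8 samples form 4 groups of 2: control input, control immunoprecipitate, knockout input and knockout immunoprecipitate. No treatment or time is labelled, and no label describes the guide, the kind of control or whether the knockout is 1 clone. One peak list per genotype was used, so no spread between cultures can be given and no test between genotypes was possible.

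H3K4me1 is placed by the MLL3 and MLL4 methyltransferases at enhancers, both poised and active, and on the flanks of active promoters, where it often spreads over several nucleosomes. ARID1A is the DNA-binding subunit of the canonical BAF (SWI/SNF) complex, which uses ATP to slide and evict nucleosomes and keeps many distal enhancers open. Its loss is known to change enhancer chromatin in several epithelial cancers.

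A peak list does not check the knockout itself, and fewer cells carrying the mark cannot be told apart from less mark per cell in bulk chromatin. The control list held 83000 peaks and the knockout list 73603. The shortest peak was 312 bases in control and 361 in knockout, and adjacent peaks were never closer than 1249 and 1445 bases, so the 2 lists did not merge peaks alike. Control peaks lay in the record (the gene's span in the RefSeq table), with 5000 bases on either side, of 18 of 18 basal breast and mesenchymal markers, 16 of 18 luminal genes, 11 of 14 leukocyte markers and 13 of 14 endothelial and stromal markers. Median covered bases were 12198.5, 7103, 1838 and 10184 in that order. The protocol text names an H3K4me3 antibody while the titles and antibody label name H3K4me1.

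Sequences are shown for start sites that lay under a wide control-only peak, in the 4 genes whose peaks had the highest −log10 q. That value is the authors' significance of a peak over its input, corrected for multiple testing. TNS1 encodes tensin 1, which ties integrins to actin, and BATF2 encodes a basic leucine zipper factor that pairs with JUN proteins. FOXRED2 encodes an oxidoreductase of the endoplasmic reticulum, and GPR135 an orphan G protein-coupled receptor. The TNS1 start shown, at 217920236, is internal to its minus-strand record, which runs from 217799791 to 218033982. Another listed TNS1 start lies at 217944070. Knockout peaks lay elsewhere in the records of TNS1 (4), BATF2 (1) and GPR135 (1), and none lay in that of FOXRED2. Each run is the 250 bases before the listed start, on the minus strand, from RefSeq (GRCh38.p14). Capitals mark a TEAD core (GGAATG) in TNS1 and GC boxes (GGGCGG, or CCGCCC on the other strand) in the other 3.

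TNS1, chr2:217920237-217920486: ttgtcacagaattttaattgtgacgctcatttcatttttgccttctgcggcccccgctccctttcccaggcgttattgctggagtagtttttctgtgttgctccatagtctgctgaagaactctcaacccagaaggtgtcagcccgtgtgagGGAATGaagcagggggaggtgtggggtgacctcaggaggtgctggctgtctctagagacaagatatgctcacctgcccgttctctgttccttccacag

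BATF2, chr11:64990278-64990527: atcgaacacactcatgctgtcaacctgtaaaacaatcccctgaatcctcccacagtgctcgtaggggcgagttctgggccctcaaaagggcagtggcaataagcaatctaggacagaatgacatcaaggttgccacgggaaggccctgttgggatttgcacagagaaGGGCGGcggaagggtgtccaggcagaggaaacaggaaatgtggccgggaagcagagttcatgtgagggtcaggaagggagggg

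FOXRED2, chr22:36507041-36507290: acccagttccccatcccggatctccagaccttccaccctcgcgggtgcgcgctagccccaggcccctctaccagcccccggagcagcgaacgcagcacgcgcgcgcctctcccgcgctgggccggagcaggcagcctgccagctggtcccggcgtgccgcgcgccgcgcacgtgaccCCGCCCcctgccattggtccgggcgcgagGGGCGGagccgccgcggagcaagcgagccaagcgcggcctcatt

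GPR135, chr14:59465381-59465630: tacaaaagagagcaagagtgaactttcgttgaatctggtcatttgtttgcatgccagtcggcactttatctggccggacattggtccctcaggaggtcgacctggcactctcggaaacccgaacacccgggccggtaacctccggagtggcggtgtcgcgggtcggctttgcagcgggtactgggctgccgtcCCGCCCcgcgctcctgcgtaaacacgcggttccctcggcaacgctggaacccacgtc

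The 4 sequences differ in base makeup. In the 300-base window from 250 before to 50 after the start, FOXRED2 held 40 CpG dinucleotides with an observed over expected ratio of 0.966, and GPR135 held 29 with a ratio of 0.960. TNS1 held 7 (0.324) and BATF2 held 9 (0.412).

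MicroRNA hairpins gave a second small set. Of 1558 hairpins in the RefSeq table on these chromosomes, 6 lay under 5 wide control-only peaks, against 124 under a shared wide peak. They yield 10 mature miRNAs with 10 different seeds. The 5 shown come from the copy of miR-9, a regulator of neural development, the copy of miR-103a, a widely expressed miRNA known for acting on insulin signalling, and the hairpin inside MCU. Capitals mark the seed, bases 2 to 8.

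miR-9-5p: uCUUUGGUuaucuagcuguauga

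miR-9-3p: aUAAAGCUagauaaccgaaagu

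miR-103a-3p: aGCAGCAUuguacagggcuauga

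miR-4676-5p: gAGCCAGUggugagacaguga

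miR-4676-3p: cACUGUUUcaccacuggcucuu

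The peak over MIR9-2 was 2224 bases long with −log10 q 2.27, and the nearest knockout peak was 2974 bases away. MIR9-2 is 1 of 3 listed genomic copies of miR-9, and neither MIR9-1 nor MIR9-3 lay under a peak of either list (nearest control peak 21384 and 8453 bases away). The peak over MIR103A2 was among the weak ones, with −log10 q 1.30 and a length of 2214 bases. MIR103A1, the other copy, was 14228 bases from a control peak and 6347 from a knockout peak. Since the copies give the same mature miRNA, a peak at 1 copy does not give the level of the miRNA.

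Wide control-only peaks were mostly weak and narrow for their class. As they were selected on width and on the lack of a knockout call, the following values are a description with no test. Their median −log10 q was 2.45 (range 1.09 to 15.6), against 5.64 for shared wide peaks, and their median fold over input was 2.81 against 3.71. Median pileup, the authors' height of stacked fragments, was 11.8 against 17.9. Median width was 2511.5 bases against 3276.

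**Figure D1:**
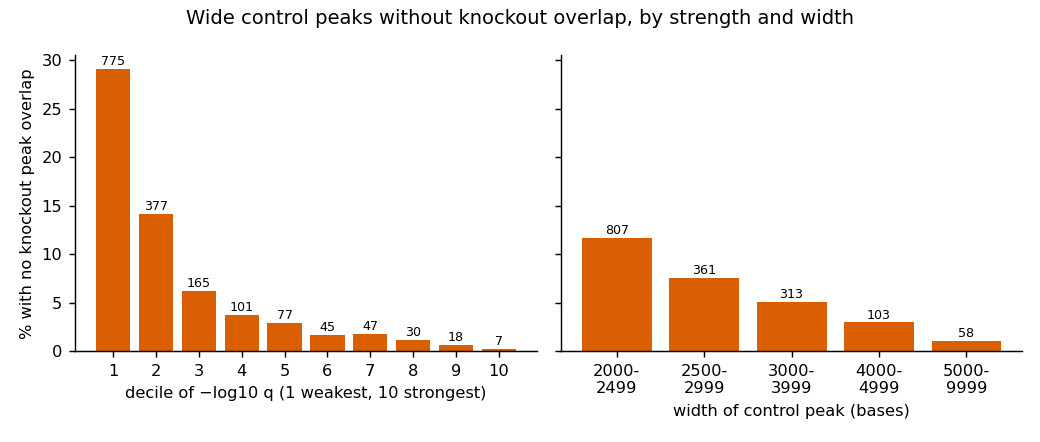
The vertical axes give the percent of wide control peaks with no knockout overlap, by decile of −log10 q (left) and by width in bases (right), and the numbers over the bars count the control-only peaks. The share is 29.1% in the weakest decile and 0.263% in the strongest, and it is lower in each wider class.

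The plot by strength and width shows how steeply the share changed. In the weakest decile of wide control peaks by −log10 q, 775 of 2666 (29.1%) were control-only, and in the strongest decile 7 of 2666 (0.263%). Below 2500 bases 807 of 6886 (11.7%) were control-only, and from 5000 bases up 58 of 5399 (1.07%). At the lower width limit, 98 of the 809 control peaks up to 50 bases inside it were control-only (12.1%), and 117 of the 834 up to 50 bases outside it (14.0%). Another 15 wide control peaks overlapped a knockout peak by 1 to 100 bases and so fell outside the set, while 9 peaks of the set had a gap of under 100 bases to one. Wide control-only peaks were 7.03% of the 23368 control-only peaks of any width and held 2.55% of all control peak bases.

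The strongest wide control-only peaks lay at genes of differing function. The highest −log10 q, 15.6, belonged to a 3247-base peak at chr10:75357607-75360853 in the record of ZNF503, a zinc finger transcriptional repressor. Its nearest knockout peak was 38648 bases away and weak (−log10 q 2.32). TNS1 came next with 14.8 over 6407 bases, the peak that covers the start printed above. Its fold over input was 5.93, and the nearest knockout peak, 10505 bases away, was 479 bases long with −log10 q 1.39. The TNS1 peak is the one of the 10 strongest with the greatest width.

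A peak of 2543 bases with −log10 q 14.5 lay within MMP24, a membrane-bound metalloprotease gene, and within the readthrough record MMP24-AS1-EDEM2. SLC13A3, a sodium-coupled dicarboxylate transporter, held one of 3112 bases with 14.4, and the nearest knockout peak was 61468 bases away. The peak nearest SYNGR4, a synaptogyrin family member, had 13.6 and lay 1579 bases outside its record. APBA1, a neuronal adaptor of the amyloid precursor protein, held a peak of 2042 bases with 13.3.

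RPS6KA2 encodes a ribosomal S6 kinase downstream of ERK. Its peak, −log10 q 12.1, lay 4964 bases from a strong knockout peak of −log10 q 19.8. IREB2, the iron regulatory protein 2 gene, was 17447 bases from a peak of 11.5. The last of the 10 were CLMN, which encodes the actin-binding protein calmin (11.5), and ELFN2, a leucine-rich repeat membrane protein (11.3, with a 7467-base knockout peak 4180 bases away).

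The longest wide control-only peaks were a different set from the strongest. The longest, 9413 bases, lay 28446 bases from SHOC1, a meiotic crossover gene, with −log10 q 1.90. A peak of 8591 bases lay 69095 bases from BLID, which encodes a BH3-like cell death inducer, with 5.34. MAML3, a Notch co-activator, held one of 8543 bases and SIPA1L3, of the Rap GTPase-activating family, one of 8393 bases, at 2.29 and 2.82. Each of these long peaks had a −log10 q below the 14.8 of the TNS1 peak. The peak near BLID was above the set's upper quartile of 3.45.

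COL12A1, which encodes fibril-associated collagen XII, held a peak of 8270 bases that ended 33 bases from a 3030-base knockout peak. It therefore counts as control-only by a narrow margin. The next was a peak of 8176 bases 5713 bases from CELF4, an RNA-binding splicing regulator, with −log10 q 6.58. Peaks of 8010 bases near DKK1, a secreted Wnt inhibitor, and of 7936 bases in ASNS, asparagine synthetase, had 2.16 and 3.82. A knockout peak lay 491 bases from the ASNS peak. The set of 10 ends with peaks of 7918 bases, 400351 bases from KCNJ18, a potassium channel gene, and of 7671 bases, 243676 bases from DIAPH2, a formin that builds actin filaments.

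Many wide control-only peaks had knockout peaks close by. The median distance to the nearest knockout peak was 9749 bases, with quartiles of 3690.5 and 28236.5 and a range of 2 to 972803. Within 1000 bases of a knockout peak were 57 peaks (3.47%), within 5000 bases 554 (33.7%, 95% exact interval 31.5 to 36.1), and within 50000 bases 1363 (83.0%). Such intervals cover counting error over peaks, which are not independent of their neighbours, and say nothing of variation between cultures. Wide knockout-only peaks were a median of 10120 bases from a control peak, with 30.2% (27.9 to 32.6) within 5000 bases. The distances were thus of similar size in both directions.

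**Figure D2:**
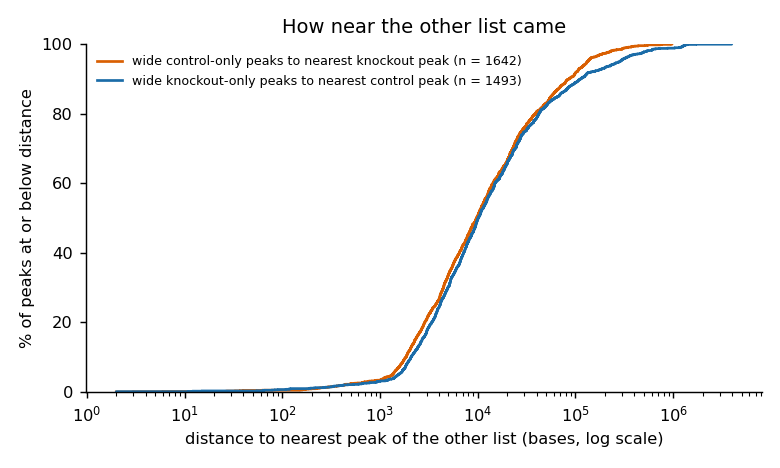
The curves give the percent of wide control-only peaks (n = 1642) and wide knockout-only peaks (n = 1493) at or below a distance in bases (log axis) to the nearest peak of the other list. The curves run close together up to 50000 bases, where 83.0% and 82.3% lie below, and the knockout-only curve has the longer tail.

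Knockout peaks lay within 5000 bases on both sides of 109 wide control-only peaks, on one side of 445 and on neither side of 1088. The nearest knockout peaks had a median −log10 q of 3.03 against 3.77 over all knockout peaks. The following stood farthest from any knockout peak when a peak whose nearest gene repeated one already taken was skipped. A run of 4 at chr17:21697143-22313336 held peaks up to 758015 bases away that are not among those listed. The farthest was at chrX:26911991-26916716, 972803 bases away, with −log10 q 4.96 and PPP4R3C, a protein phosphatase 4 subunit gene, as nearest coding gene at 543490 bases. Others were in CDH7, a type II cadherin gene (740324 bases), in LOC107987020 (541197), nearest LOC105372073 (514611) and nearest OR13H1, an olfactory receptor gene (433816). In that order these 4 had −log10 q 1.38, 5.09, 3.63 and 1.80, against a median of 2.45 and an upper quartile of 3.45 over the set.

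Over coding genes, wide control-only peaks were spread thinly. Of 19974 coding gene records, 881 (4.41%) overlapped one, 763 of them with 1 peak, 86 with 2 and 32 with 3 or more. Of the 1642 peaks, 1010 (61.5%) overlapped a record. The share of genes hit went with gene length, from 0.460% of records up to 10000 bases to 22.8% of records over 300000 bases, and the genes hit had a median length of 109757 bases against 24170.5 over all coding genes. Of the 881, 772 also held a knockout peak elsewhere in the record. Knockout peak bases in the record were fewer than control bases in 806 of the 881 and more in 75, a direction that the choice of the peaks favours.

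The input background differed between regions and moved with the share of wide control peaks that were control-only. It was estimated per peak as (pileup + 1) / fold − 1, with a lowest value of 2.404 in control and 2.60 in knockout. For the window of 500000 bases on either side, the knockout to control ratio, divided by the ratio over the genome, had a median of 0.969 at wide control-only peaks and 0.992 at shared wide peaks. It was under 0.8 at 183 of 1572 of the former (11.6%, 10.1 to 13.3) and 1690 of 24916 of the latter (6.78%). Another 70 and 99 peaks had no ratio, as at least 5 peaks per list were required in the window. Where the ratio was under 0.8, 9.77% of wide control peaks were control-only, and where it was 1.1 or more, 4.44%. In regions where both lists lie near their lowest estimates, those 2 values largely set the ratio.

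Genes were ranked by the number of these peaks, so fewer knockout than control peaks in their records goes with the choice. ARHGAP6, which encodes a GTPase-activating protein, had the most wide control-only peaks, 7. Its X-linked record of 528377 bases held 20 control peaks over 36009 bases and 1 knockout peak over 2067 bases. The 7 peaks were all weak, with −log10 q from 1.57 to 3.21, and stood 55094 to 212860 bases from a knockout peak. SDK1, a sidekick adhesion molecule, showed a similar sparseness: 23 control peaks over 33612 bases and 2 knockout peaks over 1084 bases, with 3 wide control-only peaks of −log10 q 2.67, 3.28 and 8.06.

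TNS1 held 5 wide control-only peaks of 18011 bases in all, with −log10 q from 2.72 to 14.8. Over its record were 12 control peaks of 38669 bases and 4 knockout peaks of 7760 bases. The nearest knockout peaks were 3077 to 13006 bases away, nearer than at ARHGAP6. SIPA1L3 had 4, the largest of them the 8393-base peak above, with 102090 control and 40368 knockout bases in the record. COL8A1, a collagen VIII chain gene, had 4 of −log10 q 2.24 to 3.20 with 79962 control and 43963 knockout bases.

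MCU, the pore of the mitochondrial calcium uniporter, had 4, and the one of 4891 bases holds the MIR4676 hairpin shown above. Its record held 40105 control and 25257 knockout bases. SGMS1, a sphingomyelin synthase, had 4 within a record that differed little in coverage, 74869 control and 65702 knockout bases, and also held 1 wide knockout-only peak. NTN1, the guidance cue netrin 1, had 4 of −log10 q 1.89 to 2.06, with 26112 control and 9949 knockout bases. Among the 10 genes with the most, MAML3 (66449 and 44674 bases) and MYO1D, an unconventional myosin (40604 and 14615), had 3 each. Over these records the background ratio was under 0.8 at TNS1 (0.747), COL8A1 (0.652) and NTN1 (0.635), from 4, 8 and 9 knockout peaks, and from 0.824 at SDK1 to 1.09 at MYO1D in the other 7. The ratios at SDK1 and ARHGAP6 (0.875) rest on 2 and 1 knockout peaks. Control and knockout estimates at these genes were near their lowest values, 2.53 and 2.60 at SDK1 and 2.48 and 2.71 at ARHGAP6. The part of the background ratio in the differences in covered bases was not tested.

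Of the 881 genes, 109 (12.4%) had no knockout peak anywhere in the record, against 841 of the 14184 other genes with a control peak (5.93%). The 881 were chosen for holding a control peak with no knockout overlap, so this difference goes with the choice and is a description; gene length and the number of control peaks were not adjusted for either. The genes named next were chosen after their values were seen. PIEZO2, a mechanosensitive ion channel, had 19 control peaks of 19201 bases, 3 of them wide control-only, and no knockout peak in a record of 479323 bases. RSPH9, a radial spoke protein of cilia, had a single control peak of 5554 bases. LAMP3, a lysosomal membrane protein, had 2 control peaks of 5317 bases and TMPRSS6, a serine protease that limits hepcidin, 4 of 6334 bases. CCND2, which encodes the G1 cyclin D2, had 2 of 4879 bases, and LHX8, a LIM homeobox factor, 4 of 7206.

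The gene lists were compared by counting genes with a wide control-only peak in the record or within 5000 bases, which over all coding genes was 5.02% (1002 of 19974). Covered bases for list genes are given over the same window. Among the 22 lists the largest share was in focal adhesion and actomyosin genes, 8 of 33 (24.2%). From the lengths of those genes alone, with the length classes above, the share would be 10.2%. Over the wide control peaks at these genes, 15 of 152 were control-only (9.87%, 5.63 to 15.8), an interval that holds the 6.16% of all wide control peaks. The 15 include the 5 in TNS1 and 3 in LPP, a zyxin-related adhesion protein with 186969 control and 136702 knockout bases. LIMCH1, an activator of non-muscle myosin, had 2, with 147284 control and 64102 knockout bases.

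Neuronal adhesion and ion channel genes, most of them long, came next. Of 30, 7 had a wide control-only peak (23.3%), where their lengths alone give 22.3%, and 7 of 30 also had a wide knockout-only peak. RYR2, the cardiac ryanodine receptor, held 4619 bases of such peaks and CNTN5, a contactin, 3943. Over the wide control peaks at these genes, 8 of 80 were control-only (10%, 4.42 to 18.8), an interval that holds 6.16%.

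SWI/SNF subunit genes, the family of ARID1A, had 4 of 23 with a wide control-only peak, 4 of 59 wide control peaks (6.78%, 1.88 to 16.5). These were the core subunit SMARCC1 (2532 bases), ARID1B, the paralog that replaces ARID1A in the complex (2483), DPF3, a reader of acetylated histones (2389), and the ATPase SMARCA4 (2172). The knockout list also had peaks at each: 7 of 13342 bases at SMARCC1, 24 of 59170 at ARID1B, 14 of 33581 at DPF3 and 5 of 6499 at SMARCA4. The interval holds the 6.16% of all wide control peaks.

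Among signalling pathways, TGF-beta, activin and BMP genes had 5 of 36. SMAD2, the receptor-activated effector, had 2 peaks of 6657 bases, SKI, a SMAD repressor, 1 of 3415, and INHBA, the activin A subunit, 1 of 2214. At INHBA the knockout list covered more bases, 5442 against 2681. YAP-TEAD genes had 4 of 27. LATS1 and LATS2, the kinases that restrain YAP, had peaks of 7233 and 2391 bases, CRIM1 1 of 4516, and VGLL4, a TEAD competitor of YAP, 2 of 4370. The LATS1 peak made up most of its 10956 control bases, against 3876 knockout bases.

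Wnt and Notch genes had 4 of 35, among them the receptor NOTCH2 (3239 bases), the Wnt effector CTNNB1 (2130) and the co-receptor LRP5 (2050). At CTNNB1 and LRP5 the knockout list covered more bases than the control list, 20370 against 19000 and 25884 against 19553. Receptor tyrosine kinase and MAPK feedback genes had 2 of 30, IGF1R (3776), the insulin-like growth factor receptor, and DDR1 (2002), a collagen receptor. Over the wide control peaks at TGF-beta, YAP-TEAD, Wnt and Notch, and kinase genes, each list's interval held 6.16%.

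Extracellular matrix and protease genes had 3 of 38, COL8A1, COL12A1 and MMP24, all named above. Cadherins had 2 of 23, CDH12 (3575 bases) and CDH7 (2319), and integrins 1 of 20, ITGA7 (2065). RUNX and ETS factors had 3 of 21, RUNX2 (3623), which drives bone formation, FLI1 (2324) and ERG (2122), while 4 of 21 had a wide knockout-only peak. RUNX2 had fewer control than knockout bases, 51829 against 62140. From gene lengths alone the shares would be 6.80% for matrix and protease genes, 12.4% for cadherins, 7.90% for integrins and 7.63% for RUNX and ETS factors. Over the wide control peaks at these genes, 6.32%, 6.45%, 2.5% and 4.92% were control-only in that order. Each list's interval held the 6.16% of all wide control peaks.

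One gene was hit in each of several lists: ZEB2, an inducer of epithelial-mesenchymal transition (1 of 20, 2668 bases), FOXA1, a luminal pioneer factor (1 of 18, 600 bases), BATF2 (1 of 19 AP-1 factors, 2385), NFKB1 (1 of 27 inflammatory genes, 4251) and HMGCS1 of sterol synthesis (1 of 23, 2500). In the marker lists, MSN and KRT6B were hit among 18 basal and mesenchymal markers, ITGAX among 14 leukocyte markers and ERG among 14 endothelial and stromal markers. KRT6B, a keratin of stratified epithelia, had a single control peak of 2134 bases and no knockout peak. ITGAX, an integrin of myeloid cells, had 3 control peaks of 5627 bases and no knockout peak. Interferon response genes had 0 of 31, from 39 wide control peaks, which allows a share of up to 9.03%. Glucocorticoid receptor genes had 0 of 14, from 23 wide peaks, which allows up to 14.8%. Over the wide control peaks at each of these lists, the interval held the 6.16% of all wide control peaks.

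Wide control-only peaks lay farther from coding genes than shared wide peaks. Their midpoints were inside a coding record in 59.4% (57.0 to 61.8), against 64.3% (63.7 to 64.9) of shared wide peaks, and over 50000 bases from any record in 22.8% (20.8 to 24.9) against 13.7% (13.3 to 14.1). To set them against shared peaks of like strength and width, the shared peaks were also averaged with the weights of 30 strata of −log10 q and width, after which their far share was 15.5%. Wide knockout-only peaks were farther still, 32.2% (29.8 to 34.6). Within every strength class the far share was near 23% for the control-only peaks: 23.01% at −log10 q 1 to 2, 22.7% at 2 to 3, 22.3% at 3 to 5 and 23.5% at 5 to 16. Shared peaks in the same classes had 17.4%, 13.4%, 11.5% and 14.7%.

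Distance to start sites showed the same order. The median distance from midpoint to the nearest listed coding start was 43564.5 bases, against 24271 for shared wide peaks and 71580 for wide knockout-only peaks. Within 1000 bases of a start lay 7.61% of wide control-only peaks (6.38 to 9.003), against 10.4% of shared wide peaks weighted to the same strata. From there to 10000 bases lay 14.1% (12.4 to 15.8) against 24.3%, and beyond 50000 bases 47.4% (45.0 to 49.9) against 37.7%. The class just beyond the start site, up to 10000 bases, is where control-only and weighted shared peaks differed most. Wide knockout-only peaks had 8.04% (6.71 to 9.53) in that class, lower than the control-only peaks.

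**Figure D3:**
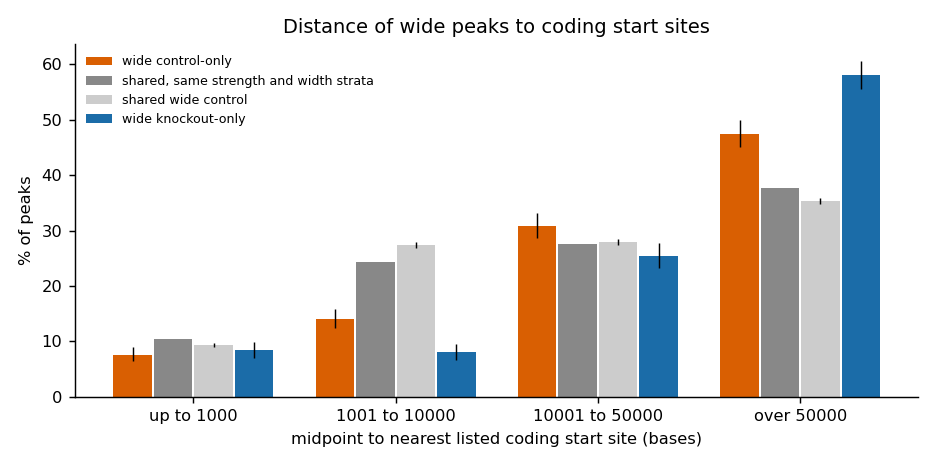
Bars give the percent of peaks by distance in bases from the midpoint to the nearest listed coding start site, for wide control-only, shared wide (weighted and as listed) and wide knockout-only peaks; lines are 95% exact intervals and the weighted bars have none. Between 1000 and 10000 bases the control-only bar stands at 14.1% and the weighted shared bar at 24.3%.

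Inside genes the same tilt appeared. Of 777 wide control-only peaks inside a record with a known strand, 34.9% (31.5 to 38.3) lay in the first 25% of the gene's length, against 45.5% of shared wide peaks and 28.6% of wide knockout-only peaks. The following stretches of 25% held 30.4%, 20.7% and 14.0% of the control-only peaks. Host genes were longer too, a median of 136820 bases against 99579 for shared peaks, and those of wide knockout-only peaks were longer still, 188360.

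The greatest distance from a wide control-only midpoint to a coding record was 2014395 bases. Peaks whose nearest gene repeated one already taken were skipped in the list that follows. The farthest wide control-only peaks left were nearest PIK3C3, a class III phosphatidylinositol kinase gene (1827243 bases, −log10 q 3.66), LOC124900844 (1783297, 1.32), STIM2, an endoplasmic reticulum calcium sensor (1490559, 1.504), SI, sucrase-isomaltase (1461552, 1.44), and GOT2, a mitochondrial aminotransferase (1406624, 2.80). In the same order, their nearest knockout peaks were 31828, 7131, 25868, 69331 and 128475 bases away, against a median of 9749 over the set.

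Few wide control-only peaks covered a start site. Of the 1642, 64 (3.90%, 3.01 to 4.95) covered a listed coding start, against 7.16% of shared wide peaks and 7.18% after weighting to the same strata. Wide knockout-only peaks had a similar share, 4.49% (3.49 to 5.66). The starts under the 64 peaks belonged to 63 genes, 0.398% of the 15812 of 19974 coding genes with a promoter window in the RefSeq table. For 55 of the 63 no listed start lay under a knockout peak, and 8 had another listed start under one. Of the 63, 39 had a single listed start, and for these the rule fixes the outcome.

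After the 4 genes shown above, the highest −log10 q over a start was at FAM107A, an actin-bundling stress gene (6.35), SPMAP2 (6.10), and NAV1, a microtubule-binding neuron navigator (5.31). Then came LAMA4, a laminin chain of basement membranes (5.24), FABP3, a fatty acid-binding protein (5.23), and FRMPD1 (4.80). Their nearest knockout peaks were 4306 bases (SPMAP2) to 21199 bases (NAV1) away. TNS1, BATF2 and FOXRED2 had 14.8, 10.8 and 10.1, and GPR135 8.09.

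The covered starts held fewer CpG dinucleotides than coding starts at large. Of their 68 windows of 300 bases, 30 (44.1%, 32.1 to 56.7) had an observed over expected CpG ratio over 0.6, against 62.1% of all 22012 coding windows, 59.9% of windows under shared wide peaks and 50.6% under wide knockout-only peaks. Median CpG counts were 13.5 in the 68 and 21 over all, with 20 under shared wide peaks and 14 under wide knockout-only peaks. Motifs were counted on both strands: the AP-1 site TGANTCA was in 2 of 68 (2.94%, 6.16% of all windows), the TEAD core GGAATG in 7 (10.3%, 12.2%) and the GC box GGGCGG in 36 (52.9%, 56.3%). CCAAT was in 22 (32.4%, 34.7%), TATAAA in 9 (13.2%, 9.49%) and CCACCC in 25 (36.8%, 37.7%). With 68 windows, the exact intervals of all 6 motifs held the share of all windows, and a match is a description of letters, not a bound factor.

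Wide control-only peaks lay next to each other more often than their share of wide control peaks. Of the wide control peaks directly beside one, 542 of 3279 (16.5%, 15.3 to 17.8) were also control-only, against 5.48% (5.28 to 5.68) of those beside shared wide peaks. An adjacent pair is counted from both sides, so the intervals of neighbour shares are too narrow. Over neighbours of any width, 45.1% (43.4 to 46.8) of the control peaks beside a wide control-only peak were control-only, against 23.6% beside a shared wide peak. Wide knockout-only peaks had a similar neighbour share in their own list, 19.4% (18.04 to 20.9) against 5.45% of all wide knockout peaks. Still, 1188 of the 1642 had no control-only wide neighbour, and the median gap from one to the next on a chromosome was 783516 bases.

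Runs were counted as consecutive wide control peaks that were all control-only. Few knockout peaks inside a run therefore go with the choice, and the peak counts given for runs are a description. Of 1371 runs, 134 held 2 peaks, 30 held 3 and 19 held 4 or more, and 454 peaks (27.6%) were in a run of at least 2. The largest held 12 peaks on chromosome 18, from 37357898 to 38495129, over CELF4 and LOC105372073. Within it were 40 control peaks of 65525 bases and 2 knockout peaks of 1377 bases, and the 12 had −log10 q from 1.44 to 9.13.

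The next was a run of 8 at chrX:10767555-11500994, over MID1, a microtubule-bound ubiquitin ligase gene, and ARHGAP6, with 24 control peaks and 3 knockout peaks. A run of 7 at chr11:121519867-122121178 reached from SORL1, a sorting receptor for the amyloid precursor protein, to BLID. It held 24 control peaks of 56362 bases and 7 knockout peaks of 16427 bases, with −log10 q up to 9.55, so it was less bare of knockout peaks than the first 2. A run of 5 at chr7:97420712-97870781, over TAC1, the substance P precursor, and ASNS, held 13 control peaks and 1 knockout peak. The other was a run of 5 at chr6:150267181-150415131 at IYD, a thyroid iodotyrosine deiodinase, with 11 control peaks of 27654 bases and 2 knockout peaks of 2998 bases.

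**Figure D4:**
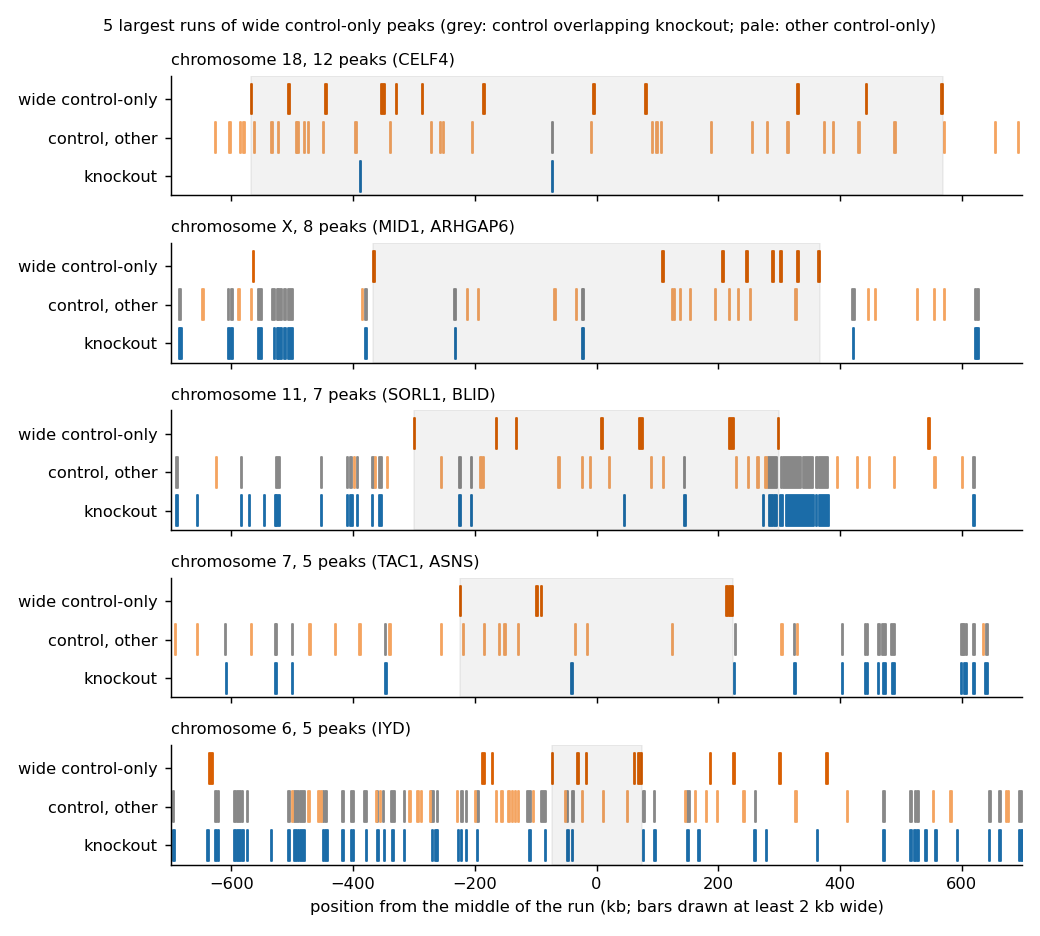
Each panel places the peaks of 1 run on an axis in kilobases from the run's middle, with wide control-only peaks, other control peaks (grey if they overlap a knockout peak, pale if not) and knockout peaks in separate rows, and the run shaded. The chromosome 18 run shows 12 wide control-only peaks beside 2 knockout peaks, while outside the shaded runs on chromosomes X, 11, 7 and 6 knockout peaks lie beside grey control peaks.

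Further runs of 5 lay at chr12:4106854-4217196, over PIEZO2 on chromosome 18, and at PJA1 and NALF2 on X. In the first 2 of them no knockout peak lay at all, against 11 and 24 control peaks.

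Inside the chromosome 18 run the background ratio was 0.557, and with 1 Mb on either side 0.854, the knockout estimate in the run resting on 2 peaks. In the runs on X, 11, 7 and 6 it was 0.838, 0.9503, 0.796 and 0.912, and with 1 Mb on either side 0.834, 0.920, 0.957 and 0.943. The values inside these runs rest on 3, 7, 1 and 2 knockout peaks in that order. For the X run the control and knockout estimates, 2.64 and 2.75, were near their lowest values. With peaks of a local ratio under 0.8 or without a ratio left out, the neighbour share was 13.8% against 5.15% beside shared wide peaks, and the far share 19.5%.

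In fixed windows of 1 Mb the highest counts were 11 at chromosome 6 from 150 to 151 Mb and 11 at the start of chromosome 2. Windows were ranked by these counts, so fewer knockout than control peaks in them also goes with the choice. The chromosome 6 window holds PPP1R14C, an inhibitor of myosin phosphatase, and IYD, with 58 control and 28 knockout peaks. The chromosome 2 window holds ALKAL2, a ligand of the ALK receptor, and SH3YL1, with 53 control and 26 knockout peaks. The next were 8 at chromosome 18 from 37 to 38 Mb, 7 at chromosome 12 from 4 to 5 Mb, which holds CCND2, and 7 at X from 11 to 12 Mb, at ARHGAP6. A window on chromosome 6 from 164 to 165 Mb, with no coding gene, also held 7 and came after these by the bases covered. Windows with 3 or more numbered 134 of the 2517 with a wide control peak and held 495 of the 1642 peaks.

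By chromosome the share of wide control peaks that were control-only ran from 4.10% on 22 (2.58 to 6.14) and 4.62% on 20 to 10.5% on X (8.10 to 13.3) and 11.2% on 18 (8.49 to 14.4). Wide knockout-only peaks were also frequent on 18, 11.6% (8.90 to 14.8) of wide knockout peaks, but made up 5.45% on X. Chromosomes 13 and 21 had 8.63% and 10.2% knockout-only against 5.92% and 6.62% control-only. Chromosome 18 thus had high shares in both directions and X in one. The knockout to control background ratio was 0.886 on 18, 0.890 on X, 1.37 on 13 and 1.004 on 21, and its part in these shares was not tested. On X the control and knockout estimates, 2.47 and 2.74, were near their lowest values, 2.404 and 2.60, which largely set the ratio there.

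**Figure D5:**
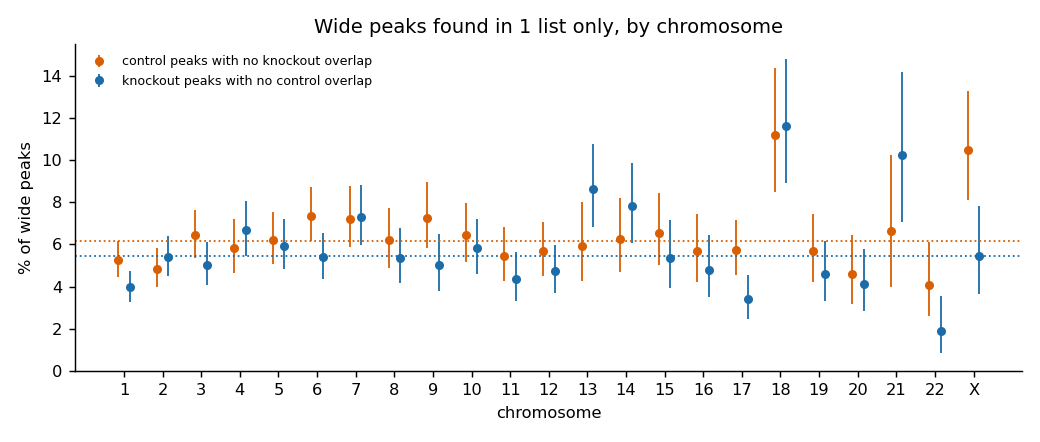
Points give, for each chromosome, the percent of wide control peaks without a knockout overlap and of wide knockout peaks without a control overlap; lines are 95% exact intervals and dotted lines the shares over all chromosomes, 6.16% and 5.45%. Chromosome 18 stands high in both sets, at 11.2% and 11.6%, and X in the control-only set, at 10.5%.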

How the data were processed

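H3K4me1 and input chromatin, digested with micrococcal nuclease per the labels' protocols, were sequenced in 2 samples per group. The authors used Bowtie2 2.3.5.1, MACS2 2.2.6 and build hg38, per the submitters' processing notes. Whether replicates were pooled, the thresholds and the fragment lengths are not stated in the labels or headers. The columns used are, per the file headers, the authors' pileup (a signal), fold enrichment and −log10 q value of each peak, each against its own input, used here to describe, rank and filter peaks within a list. They hold no read counts, so depth is unknown.

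Overlap was at least 1 base. Python 3.11.15, numpy 2.4.6, pandas 2.3.3, scipy 1.17.1 and matplotlib 3.10.9 were used, and the interval code was checked on simulated data. The 95% intervals are exact binomial (Clopper-Pearson). Genes, start sites and sequences came from RefSeq tables of GRCh38.p14, which numbers its chromosomes as hg38 does. Exon, intron and UTR classes were not analysed here. Weighted shares used 10 classes of −log10 q by 3 of width. The background estimate assumes a MACS2 pseudocount of 1. All 549 entries of the 22 gene lists matched, 1 through an older symbol. No p-value was computed.

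The peaks, gene lists and naming rules were chosen with earlier results of these data known. Named were the 10 strongest, the 10 longest, the 10 genes with most peaks, the 5 largest runs and 5 fullest windows of 1 Mb, the 5 farthest from knockout peaks and from genes, up to 3 genes per list by peak bases, and the 10 strongest over a start; other names were chosen after their values were seen. In ranking single peaks, a peak whose nearest gene repeated one already taken was skipped. Alternatives varied the q, fold, width, overlap and distance limits. The results of 1 gene list and 1 gene that the rule named are not reported here.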

Additional observations from a re-analysis of the deposited data

How the results depend on the processing

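No paired analysis was possible because each genotype has 1 deposited list and no value per replicate. For the same reason no replicate was left out.

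The reported values were 1642 peaks, 881 coding genes hit, 22.8% far from coding genes, 16.5% control-only neighbours and 33.7% with a knockout peak within 5000 bases. With a control −log10 q of at least 2 there were 1090 peaks, 580 genes and 14.0% control-only neighbours. With at least 5 there were 183 peaks and 96 genes, 7.65% of neighbours, and 24.6% near a knockout peak. With a limit of 2 in both lists there were 2026 peaks and 1124 genes, the far share was 18.5% and the near share 28.5%. Control peaks whose only knockout overlap was below that limit count as control-only there. With a fold of at least 4 there were 93 peaks, 55 genes, a far share of 19.4%, a neighbour share of 4.30% and a near share of 31.2%. With a width of at least 1500 bases there were 3408 peaks and 1592 genes, a neighbour share of 20.8% and a near share of 31.3%, and with at least 3000 bases 474, 306, 10.99% and 36.3%.

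The near share was 31.4% when a knockout peak within 1000 bases counted as overlap, 37.2% when under 10% coverage counted as none, 30.7% with the same merging distance and shortest peak in both lists, and 50.6% within 10000 bases. The far share was 16.8% beyond 100000 bases and 5.91% when noncoding genes counted too. Leaving out chromosomes 18 and X, chosen after seeing the data, gave a neighbour share of 14.997%. Leaving out regions of low local knockout background, also chosen after seeing the data, gave a far share of 19.5% and a neighbour share of 13.8%. The neighbour share exceeded that beside shared wide peaks in each of these alternatives, for example 7.65% against 1.17% at a −log10 q of at least 5.

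Of the 1642 peaks, 552 had a −log10 q under 2, and the lowest in the control list was 1.01. Depth is unknown.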
